A study of Mus musculus with 12 samples.

Results

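CT18, the middle of the subjective night, was compared with CT14, early in that night, in CD8+ T cells, the cytotoxic lymphocytes, of mouse lymph nodes. The 4 libraries were taken by their time labels, 2 from CT18 and 2 from CT14 with 1 of each on day 1 and 1 on day 2, out of 12 in the series. The other 8 libraries came from CT2, CT6, CT10 and CT22, also 1 per day, and served to estimate the spread between libraries. All cells came from male C57BL/6J mice aged 8 weeks and held in constant darkness, so that time counts along the internal clock; the labels name no treatment and no allele besides the strain. Neither the number of mice behind a sample nor the way the cells were purified is given in the labels, and every p-value rests on the spread between samples that may share animals. Polyadenylated RNA was sequenced, and levels below are in CPM, counts scaled to library size, unless another unit is named.

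Many genes named here encode molecular chaperones, proteins that hold and refold other proteins. Hsp70 proteins bind unfolded stretches and use ATP to release them; Hsp40 (J-domain) proteins bring them their clients and Hsp110 proteins exchange their nucleotide. Hsp90 takes over part of the clients through a set of co-chaperones, and chaperonins fold proteins inside a closed chamber. Heat shock factor HSF1 raises transcription of many of these genes in warm or stressed cells through heat shock elements, inverted repeats of the bases GAA. In mice, which are active at night, body temperature follows a daily cycle.

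Matches to a short form of the heat shock element near the starts of chaperone genes are shown first. They are matches of letters only, and binding was not measured. Of the 6 genes that fell, 4 encode chaperones or their helpers, and among these 4 only Hsph1 held a match. The 250 bases before each start in RefSeq's table of mouse promoters (build GRCm38.p6) were searched for GAANNTTC and TTCNNGAA, which read the same on both strands and may overlap in a longer element. Of 83 tested genes in 5 lists of chaperones and related stress genes, 65 matched an entry of the table and 12 of them held a match. Beside this, 1116 of all 10733 tested genes with an entry (10.4%) held one. The other genes of the 5 lists, among them Hspa8, Hsp90aa1, Hsp90ab1, St13 and Hsf1, matched no entry and were not searched. The lines below give up to 30 bases around the match nearest to the start, 5′ to 3′ on the strand of the gene, with the matched bases in capitals, ordered from the largest decrease at CT18 to the largest increase.
Hspa1a (chr17:34972242-34972271, minus strand): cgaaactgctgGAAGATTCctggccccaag
Hspa1b (chr17:34959324-34959353, minus strand): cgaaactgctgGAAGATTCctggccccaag
Hsph1 (chr5:149636351-149636380, minus strand): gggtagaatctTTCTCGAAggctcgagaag
Dnaja1 (chr4:40722333-40722362, plus strand): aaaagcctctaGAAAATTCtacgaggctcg
Fkbp4 (chr6:128438789-128438818, minus strand): ccgcttctctaGAAAGTTCtccgctcccgc
Nudc (chr4:133546201-133546230, minus strand): agctcagagctTTCTAGAAagctcccaggt
Hspe1 (chr1:55088053-55088082, plus strand): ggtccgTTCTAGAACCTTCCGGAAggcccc
Cct5 (chr15:31601862-31601891, minus strand): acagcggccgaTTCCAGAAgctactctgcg
Dnajb6 (chr5:29735844-29735873, plus strand): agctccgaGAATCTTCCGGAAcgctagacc
Cdc37 (chr9:21150086-21150115, minus strand): tcggcgggaacTTCCAGAAggcctcaccac
Pih1d1 (chr7:45154144-45154173, plus strand): gtgaccacccgTTCCTGAAgggtcctgggg
Hspb1 (chr5:135887811-135887840, plus strand): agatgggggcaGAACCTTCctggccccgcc
The match of Hsph1 lay 33 to 26 bases before its RefSeq start, that of Dnaja1 124 to 117 and that of Fkbp4 151 to 144. GENCODE M21 places the starts of Hsph1, Dnaja1 and Dnajb6 further upstream than this table, so that these 3 of the 12 matches lie inside the annotated gene there, and the other 9 lie outside it. The stretches of Hspa1a and Hspa1b are identical. Hspe1 and Dnajb6 held runs with the repeat continued in the same spacing or overlapping.

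Few genes passed in the comparison, and 4 of the 6 that fell at CT18 encode chaperones or their helpers. Of 16396 tested genes, 6 were lower at CT18, a share of 0.0366%, and 0 were higher (0%), by the quasi-likelihood test of edgeR, Benjamini-Hochberg adjusted, at a threshold of 0.05. Among the 6, Hsph1, Stip1, Ahsa2 and Chordc1 encode an Hsp110 protein and 3 helpers of Hsp90. The other 2 were Lman2l, which encodes a lectin-like protein of the endoplasmic reticulum, and Gprasp1, which encodes a protein that sorts internalised receptors. At an unadjusted p under 0.05, 373 genes (2.27%) were lower and 564 genes (3.44%) were higher by the same edgeR test, and the median difference over all tested genes was 0.00 on the log2 scale. DESeq2 gave an adjusted p for 13853 of the 16396 genes. It placed 22 genes (0.134% of the 16396) lower and 8 (0.0488% of them) higher. The edgeR fit without both CT2 libraries, whose days differed most, placed 20 (0.123%) lower and 5 (0.0307%) higher.

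Hsph1 (ENSMUSG00000029657.15, chromosome 5, 149614287 to 149636376, minus strand, GRCm38), whose Hsp110 protein exchanges the nucleotide of Hsp70, had the largest fall among the 6 passing genes. Its level was 153 CPM on day 1 and 160 CPM on day 2 at CT18, against 333 and 366 CPM at CT14. Both CT18 libraries lay far below both CT14 libraries, a fall by 55.2%. The log2 difference was -1.16 ± 0.09 (approximate standard error, as after every ± below), with a Benjamini-Hochberg adjusted p of 0.000947 (edgeR's quasi-likelihood test). It was -1.12 on day 1 and -1.19 on day 2.

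Stip1 (ENSMUSG00000024966.9, chromosome 19, 7020702 to 7039967, minus strand) encodes HOP, the adaptor that joins Hsp70 to Hsp90. It stood at 167 and 170 CPM at CT18, against 277 and 293 CPM at CT14. The groups did not overlap, and the log2 difference was -0.76 ± 0.07 (edgeR with Benjamini-Hochberg adjustment, adjusted p = 0.00243). Ahsa2 (ENSMUSG00000020288.13, chromosome 11, 23487882 to 23498030, minus strand) is a relative of Ahsa1, the activator of the Hsp90 ATPase. It had 33.6 and 34.2 CPM at CT18, against 54.5 and 55.3 CPM at CT14. The days differed from each other far less than the times did, and the log2 difference was -0.70 ± 0.06 (edgeR with Benjamini-Hochberg adjustment, adjusted p = 0.00224). Chordc1 (ENSMUSG00000001774.8, chromosome 9, 18292125 to 18317442, plus strand), an Hsp90-binding co-chaperone gene, had 121 and 123 CPM at CT18, against 182 and 192 CPM at CT14. Its log2 difference was -0.62 ± 0.08 (edgeR with Benjamini-Hochberg adjustment, adjusted p = 0.0345), again without overlap.

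Outside the chaperones, Lman2l (ENSMUSG00000001143.13, chromosome 1, 36419871 to 36445271, minus strand) was at 22.8 and 24.9 CPM at CT18, against 40.8 and 41.4 CPM at CT14. Its log2 difference was -0.78 ± 0.10 (edgeR with Benjamini-Hochberg adjustment, adjusted p = 0.023), a fall by 41.9%. Gprasp1 (ENSMUSG00000043384.15, chromosome X, 135742733 to 135803474, plus strand) had 48.5 and 52.0 CPM at CT18, against 68.4 and 68.1 CPM at CT14. It had the smallest fall of the 6, by 26.4%, and the largest adjusted p among them, 0.0431 (log2 difference -0.44 ± 0.06, edgeR with Benjamini-Hochberg adjustment).

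**Figure D1:**
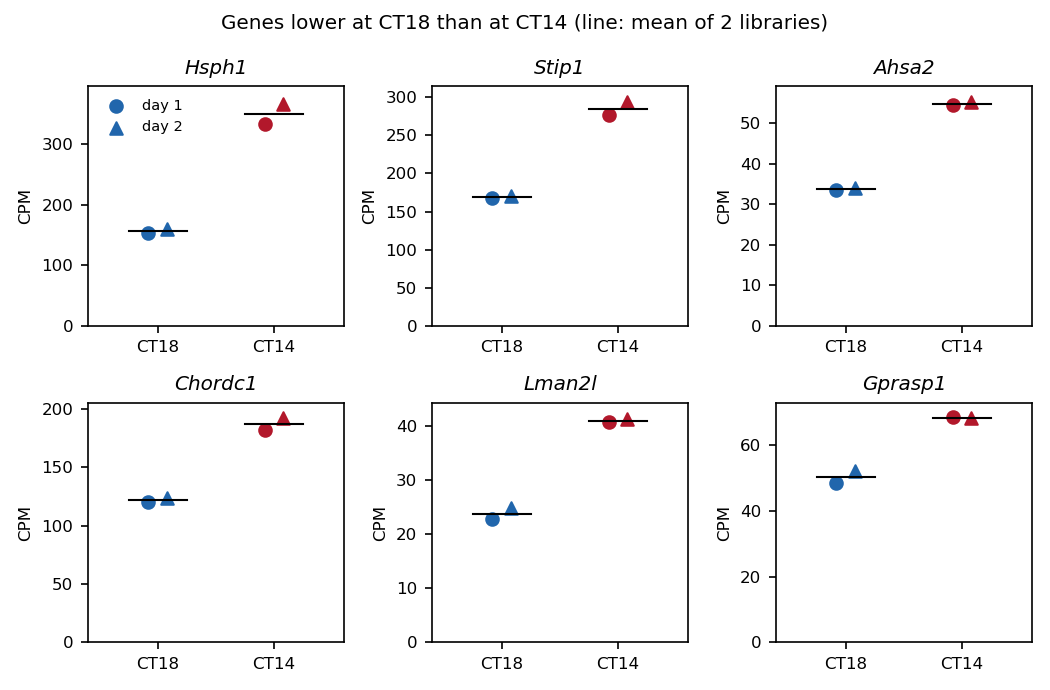
Level in CPM of the 6 genes that passed at CT18 (left of each panel) and at CT14 (right), with 1 point per library, circles for day 1, triangles for day 2 and a line at the mean of 2 libraries. In every panel both CT18 points lie below both CT14 points, from 153 and 160 against 333 and 366 CPM for Hsph1 to 48.5 and 52.0 against 68.4 and 68.1 CPM for Gprasp1.

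The number of calls depended on which libraries were in the fit. Without the CT18 library of day 1, 0 genes passed in either direction, and without that of day 2 only Hsph1 did. In a fit with a term for the day, 3 genes passed as lower, and Lman2l, Chordc1 and Gprasp1 no longer did (edgeR with Benjamini-Hochberg adjustment, adjusted p = 0.0745, 0.0987 and 0.117). In a fit of only the 4 libraries, where the biological coefficient of variation was 0.0425 in place of 0.0967, 139 genes (0.887%) were lower and 246 (1.57%) higher, and the 6 genes were among the lower ones.

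How far the fall went was asked by setting CT18 against the 8 libraries of the other times. Of the 16396 genes, 0 passed in either direction (0%), with 342 higher (2.09%) and 329 lower (2.01%) at an unadjusted p under 0.05 by edgeR and 3 genes called by DESeq2. Hsph1 remained 0.43 ± 0.07 log2 above the mean of the 4 other times at CT18, while CT14 stood 1.58 ± 0.06 above it. These differences share the 8 libraries, and that of CT18 did not pass. The 8 libraries had a lowest, median and highest Hsph1 level of 90.0, 124 and 145 CPM, so both CT18 libraries were just above all 8. The same held for Ahsa2, whose 8 libraries ran from 23.3 over a median of 28.6 to 32.0 CPM. It held for Stip1 too, whose 8 libraries ran from 122 over 150 to 165 CPM. For Chordc1 the 8 libraries ran from 93.2 over 105 to 131 CPM and for Gprasp1 from 43.2 over 47.2 to 56.7 CPM, so their CT18 values lay inside the range of the other times. Lman2l had 17.2, 21.8 and 24.4 CPM as its lowest, median and highest value there, with 1 CT18 library inside and 1 above.

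**Figure D2:**
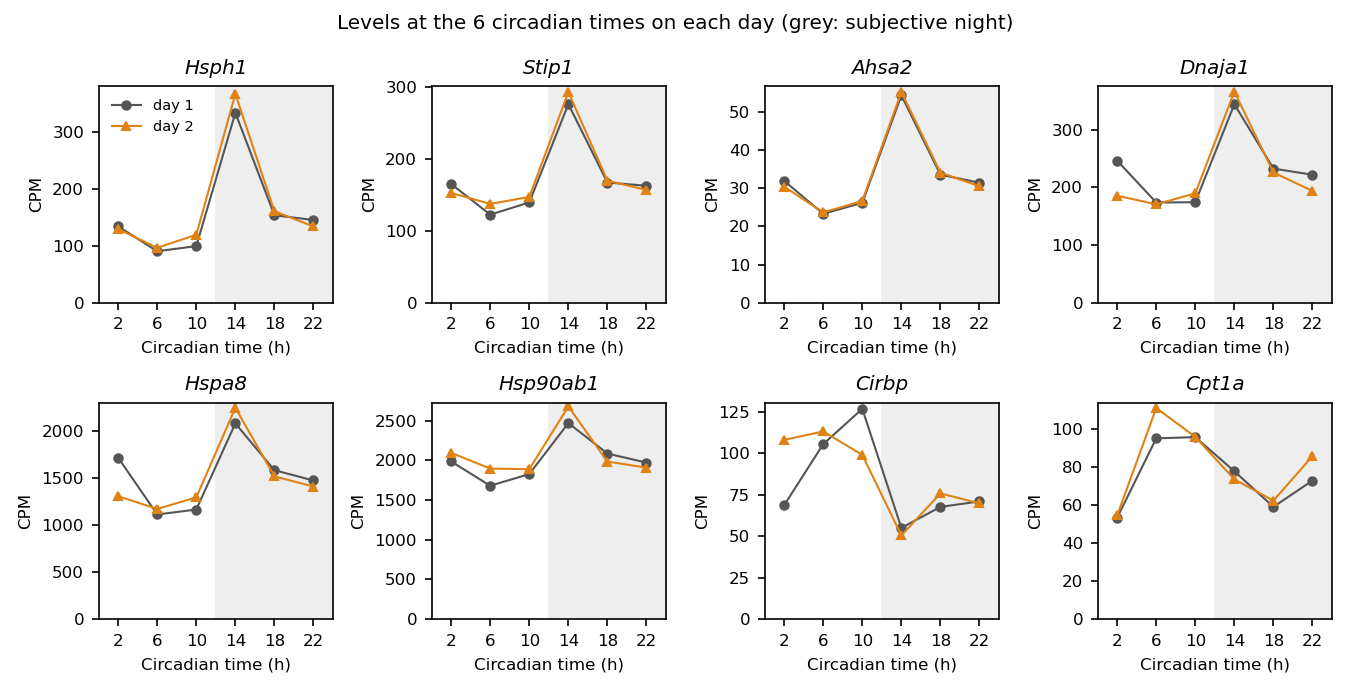
Level in CPM of 8 genes at the 6 circadian times in h, with 1 line per day (grey for day 1, orange for day 2) and the subjective night shaded. Hsph1, Stip1, Ahsa2, Dnaja1, Hspa8 and Hsp90ab1 are lower at CT18 than at CT14 on both days, Cirbp is higher at CT18 than at CT14 on both days, and Cpt1a is lower.

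The Hsp70 and Hsp110 genes differed widely among themselves. The stress-inducible genes Hspa1a and Hspa1b had the lowest log2 differences of all chaperones tested, with wide errors. Hspa1a was at 2.62 and 2.67 CPM at CT18, against 7.87 and 10.9 CPM at CT14, and Hspa1b was at 6.03 and 6.99 CPM at CT18, against 16.9 and 22.9 CPM at CT14. Their log2 differences were -1.83 ± 0.43 and -1.61 ± 0.42, and neither passed (edgeR with Benjamini-Hochberg adjustment, adjusted p = 0.446 and 0.534). Reads from either copy may be counted on the other or dropped, so the split between them is uncertain. The 8 libraries of other times ran from 0.460 over a median of 1.94 to 6.77 CPM for Hspa1b, with a mean of 6.27 CPM at CT22. CT18 stood 1.76 ± 0.34 log2 above the mean of the other times for Hspa1b. For Hspa1a it stood 1.55 ± 0.37 log2 above, and neither of these differences passed.

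Hspa8, the constitutive Hsp70, had 1585 and 1520 CPM at CT18, against 2083 and 2249 CPM at CT14. The groups did not overlap, with a log2 difference of -0.48 ± 0.12 that did not pass. Hspa4l, an Hsp110 relative, had 28.2 and 23.8 CPM at CT18, against 36.8 and 38.5 CPM at CT14, with a log2 difference of -0.54 ± 0.09 that did not pass. Per transcript length, Hspa8 was by far the more abundant in the authors' deposited TPM, with means of 2002 TPM at CT18 and 2685 TPM at CT14, while Hsph1 had 71.7 and 155 TPM. Hspa2, at a low level, had 1.21 and 1.10 CPM at CT18, against 2.08 and 1.61 CPM at CT14. Its log2 difference of -0.67 ± 0.27 did not pass, nor did that of Bag2, -0.31 ± 0.18. Some members moved little. The Hsp110 relative Hspa4 differed by -0.02 ± 0.06 log2, the mitochondrial Hsp70 gene Hspa9 by -0.02 ± 0.06, and Bag1, a nucleotide exchange factor, by -0.08 ± 0.07. Of 17 tested genes in the list (Hspa1l did not pass the filter on low counts), 1 passed as lower and 0 as higher, and the median log2 difference was -0.08. For 9 of the 17 (52.9%) both CT18 libraries were below both CT14 libraries, and for 0 both were above, where 23.3% of all tested genes were below and 23.4% above in this sense.

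Among the Hsp40 genes, which encode the J-domain partners of Hsp70, none of 18 passed in either direction. Dnajb1, the heat-inducible member, was at 114 and 109 CPM at CT18, against 159 and 163 CPM at CT14, and its log2 difference was -0.53 ± 0.08 (edgeR with Benjamini-Hochberg adjustment, adjusted p = 0.0803). Dnaja1 had 233 and 226 CPM at CT18, against 344 and 366 CPM at CT14, and a log2 difference of -0.63 ± 0.12. Both genes were lower in both CT18 libraries without overlap. Dnajb2 and Dnaja4 had smaller differences, -0.38 ± 0.09 and -0.27 ± 0.07. The remaining 14 lay between -0.15 log2 for Dnajb4 and 0.19 log2 for Dnajb14. For 9 of 18 (50%) both CT18 libraries were below and for 1 (5.56%) both were above, beside 23.3% and 23.4% of all tested genes. The median was -0.05.

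The Hsp90 list had the lowest median of the 5, -0.22 log2. Of 19 tested members 3 passed as lower (Stip1, Ahsa2 and Chordc1) and 0 as higher, 10 had an unadjusted p under 0.05, all lower, beside 2.27% of all tested genes. For 12 (63.2%) both CT18 libraries were below both CT14 libraries, beside 23.3% of all tested genes. The 2 cytosolic Hsp90 genes themselves did not pass: Hsp90aa1, the inducible form, was at 321 and 331 CPM at CT18, against 463 and 502 CPM at CT14. Hsp90ab1, the constitutive form, was at 2087 and 1986 CPM at CT18, against 2472 and 2681 CPM at CT14. Their log2 differences were -0.56 ± 0.19 and -0.34 ± 0.09, without overlap between the times, though 1 or more of the 8 other libraries reached 510 CPM for Hsp90aa1.

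Among the co-chaperones that did not pass, Fkbp4, an immunophilin of steroid receptor complexes, had 151 and 144 CPM at CT18, against 215 and 217 CPM at CT14. Ahsa1 had 88.9 and 89.9 CPM at CT18, against 122 and 138 CPM at CT14. St13, which encodes the Hsp70-interacting protein HIP, had 132 and 134 CPM at CT18, against 169 and 184 CPM at CT14. These 3 had log2 differences of -0.55 ± 0.09, -0.54 ± 0.09 and -0.41 ± 0.07, each without overlap. The difference was near 0 for Cdc37, the kinase adaptor of Hsp90 (0.00 ± 0.06), for the cyclophilin gene Ppid (0.01 ± 0.06) and for Pih1d1 (0.02 ± 0.07). The mitochondrial Hsp90 gene Trap1 had a difference of 0.05 ± 0.06.

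Chaperonins and prefoldin showed small differences in a common direction. None of 16 passed in either direction, and all 16 had a negative log2 difference. For 11 (68.8%) both CT18 libraries were below both CT14 libraries, beside 23.3% of all tested genes. Their median was -0.11 log2. The mitochondrial chaperonin gene Hspd1 was at 235 and 226 CPM at CT18, against 276 and 294 CPM at CT14 (-0.30 ± 0.07 log2). Cct3, a subunit of the cytosolic chaperonin TRiC, was at 223 and 229 CPM at CT18, against 271 and 283 CPM at CT14 (-0.29 ± 0.07 log2). The 6 tested prefoldin genes, whose products hand unfolded actin and tubulin to TRiC, lay between -0.11 log2 for Pfdn5 and 0.00 log2 for Pfdn4.

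The fifth list, of heat shock factors, small heat shock proteins and ubiquitin-related stress genes, was mixed. None of its 13 tested genes passed in either direction. Both CT18 libraries were below for 5 (38.5%) and above for 3 (23.1%), beside 23.3% and 23.4% of all tested genes. The sign of its median, -0.07 log2, depended on the setting and on the day, with 0.06 on day 1 and -0.14 on day 2. Hsf1, the factor that drives the heat shock response, had 58.6 and 58.9 CPM at CT18, against 65.2 and 62.3 CPM at CT14 (-0.12 ± 0.08 log2). Cacybp, which encodes calcyclin-binding protein, and Ubqln1, a ubiquitin-binding shuttle gene, had differences of -0.40 ± 0.15 and -0.26 ± 0.08. Hmox1, the haem oxygenase gene that macrophages express strongly, had 22.2 and 34.7 CPM at CT18, against 13.9 and 14.2 CPM at CT14 (1.02 ± 0.56 log2).

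Taken over the 5 lists, 67 of 83 genes had a negative difference and 46 (55.4%) had both CT18 libraries below both CT14 libraries, beside 23.3% of all tested genes. In the other direction 6 of the 83 had both above, beside 23.4% of all tested genes. At an unadjusted p under 0.05, 25 were lower and 0 higher, beside 2.27% and 3.44% of all tested genes, and 4 passed. The same lists supplied 12 of the 22 genes that DESeq2 placed lower. The lists were chosen with earlier results of these data known, so these shares are a description and not a test.

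**Figure D3:**
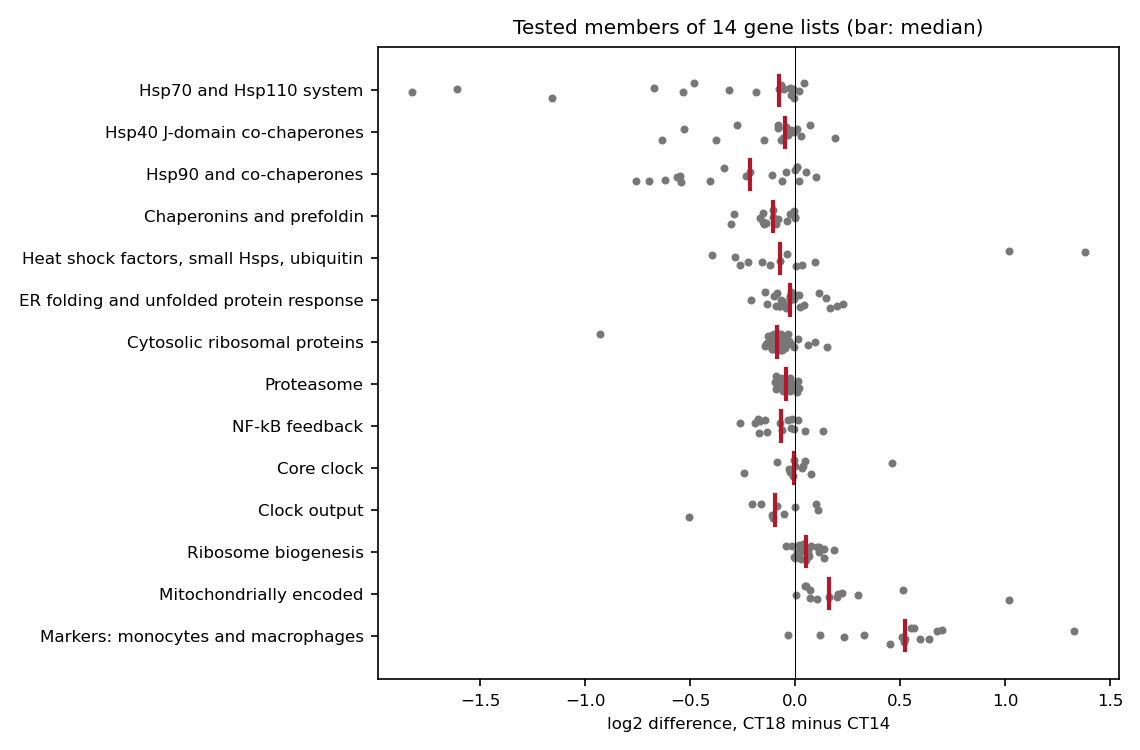
Log2 difference, CT18 minus CT14, of each tested gene (grey point) in 14 lists, with a red bar at the list's median. The Hsp90 list has the lowest median, -0.22, with its points down to -0.76, while the monocyte and macrophage markers have the highest, 0.52.

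Within the chaperones, those with a match to the short heat shock element printed above were compared with those without, as a description. The median log2 difference was -0.19 over the 12 with a match and -0.08 over the 53 without, and 9 of 12 and 28 of 53 had both CT18 libraries below both CT14 libraries. The longer element of 3 units (GAANNTTCNNGAA or TTCNNGAANNTTC) was in 2 of the 65, whose median of -0.08 was no lower than the -0.10 of the other 63. The E-box CACGTG, a site of clock factors, was also in 2, with a median of -0.19 against -0.10 in the other 63. The shorter element occurs before 12.8% of all 32851 starts in the table, that of 3 units before 0.466% and the E-box before 6.02%. Over all 1116 tested genes with the shorter element the median was 0.00 log2 and 23.8% had both CT18 libraries below, close to the 23.3% of all tested genes. Stip1, Ahsa2 and Chordc1, which passed, had no match in this window, and Cdc37, Pih1d1 and Hspb1, which had one, differed by 0.00 ± 0.06, 0.02 ± 0.07 and 0.03 ± 0.82 log2.

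Chaperones of the endoplasmic reticulum, which serve secreted and membrane proteins, had differences close to 0. None of 28 tested genes of that list passed in either direction, and the median was -0.03 log2. Both CT18 libraries were below for 10 (35.7%) and above for 3 (10.7%), beside 23.3% and 23.4% of all tested genes. Hsp90b1, the Hsp90 of that compartment, had 461 and 489 CPM at CT18, against 538 and 559 CPM at CT14 (-0.21 ± 0.11 log2). Hspa5, its Hsp70 (BiP), had 470 and 515 CPM at CT18, against 509 and 530 CPM at CT14 (-0.08 ± 0.11 log2), and overlapped. Atf6 and Ern1, sensors of unfolded proteins, had differences of 0.23 ± 0.13 and 0.20 ± 0.12, with both CT18 libraries above.

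No transcript passed as higher at CT18. The 5 of smallest p in that direction with at least 5 CPM, given as values, were Mthfsd, Bcap29, Slc14a1, Nt5dc1 and Cenpb. Mthfsd, which encodes an RNA-binding protein, had 27.1 and 25.6 CPM at CT18, against 19.1 and 18.9 CPM at CT14 (0.47 ± 0.07 log2, adjusted p = 0.088 by edgeR with Benjamini-Hochberg adjustment). Slc14a1, a urea transporter gene, had 60.6 and 62.7 CPM at CT18, against 40.5 and 44.7 CPM at CT14. Bcap29, which encodes a membrane protein of the endoplasmic reticulum, had 57.5 and 57.0 CPM at CT18, against 42.5 and 41.8 CPM at CT14. All 5 had CT18 values above CT14 on both days, and DESeq2 placed each of them higher. Their lowest values in the 8 other libraries were 22.6 CPM for Mthfsd, 56.1 CPM for Bcap29 and 60.4 CPM for Slc14a1, so both CT14 libraries were below every other time for these 3 genes.

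Cirbp and Rbm3 encode RNA-binding proteins that mild cold induces, the opposite stimulus to heat. Cirbp had 67.6 and 75.7 CPM at CT18, against 54.9 and 50.4 CPM at CT14, with a log2 difference of 0.44 ± 0.18 that did not pass. Its 8 other libraries ran from 68.6 over 102 to 127 CPM, and CT18 stood at -0.38 ± 0.14 log2 from their mean. Rbm3 had 244 and 255 CPM at CT18, against 261 and 237 CPM at CT14, and the groups overlapped. Rbm3 at CT18 stood at -0.36 ± 0.07 log2 from the mean of the other times.

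Clock genes differed little between the times. None of the 12 core clock genes or the 10 clock output genes passed in either direction, and the medians were -0.01 and -0.10 log2. Per2, a repressor of the clock, had 16.1 and 15.7 CPM at CT18, against 15.3 and 15.5 CPM at CT14 (0.04 ± 0.10 log2). Nr1d1, which encodes REV-ERBα, had 7.02 and 6.91 CPM at CT18, against 7.03 and 6.97 CPM at CT14. Cry1, a partner of the period proteins, was the core gene of smallest p, with 30.8 and 30.4 CPM at CT18, against 34.3 and 38.1 CPM at CT14 (-0.24 ± 0.10 log2). Dbp, a clock-controlled transcription factor gene, had 20.03 and 17.8 CPM at CT18, against 20.6 and 22.9 CPM at CT14 (-0.21 ± 0.10 log2). Of the 12 core genes only 1 (8.33%), Cry1, had both CT18 libraries below both CT14 libraries, beside 23.3% of all tested genes.

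Genes of protein synthesis and breakdown had small differences, negative for most ribosomal protein and proteasome genes and positive for most ribosome biogenesis genes. Of 85 tested genes for cytosolic ribosomal proteins, 0 passed in either direction, and the median was -0.09 log2. Both CT18 libraries were below for 71 (83.5%) and above for 1, beside 23.3% and 23.4% of all tested genes. Fau, which encodes a ribosomal protein fused to a ubiquitin-like one, had 729 and 717 CPM at CT18, against 783 and 810 CPM at CT14. Of 31 proteasome genes, 14 (45.2%) had both CT18 libraries below and 0 above (median -0.04 log2), and none passed. Of 26 ribosome biogenesis genes 23 had a positive difference, and 10 (38.5%) had both CT18 libraries above and 1 below. Their median was 0.05 log2, with 0.10 on day 1 and 0.0034 on day 2. Gnl3, a nucleolar GTPase gene, had 115 and 111 CPM at CT18, against 101 and 97.7 CPM at CT14 (0.19 ± 0.07 log2). Many ribosomal protein genes have processed copies elsewhere in the genome, so their counts are uncertain where reads are shared.

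Transcripts of the mitochondrial genome were higher in value at CT18. None of 13 passed, all 13 had a positive difference, and the median was 0.16 log2, with 0.20 on day 1 and 0.07 on day 2. For 10 (76.9%) both CT18 libraries were above both CT14 libraries, beside 23.4% of all tested genes. mt-Nd5, a subunit gene of complex I, had 2351 and 2508 CPM at CT18, against 2013 and 2144 CPM at CT14 (0.22 ± 0.10 log2). mt-Nd2 had 1922 and 1927 CPM at CT18, against 1630 and 1710 CPM at CT14 (0.20 ± 0.08 log2). mt-Co1, the most abundant of them by counts, overlapped between the times, with 0.01 ± 0.12 log2. Copies of mitochondrial sequence in the nuclear genome make these counts uncertain too.

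Genes of T cell identity and signalling had small differences. Cd8a and Cd8b1, the co-receptor genes that define these cells, had 1450 and 1411 CPM and 1076 and 1091 CPM at CT18, against 1421 and 1429 CPM and 1127 and 1147 CPM at CT14. Il7r, which encodes the interleukin 7 receptor that keeps naive T cells alive, had 511 and 523 CPM at CT18, against 425 and 427 CPM at CT14 (0.28 ± 0.10 log2, not passing). Klf3, a Krüppel-like transcription factor gene, differed by 0.27 ± 0.12 log2. In the list of naive and memory identity, 9 of 19 genes (47.4%) had both CT18 libraries above and 4 (21.1%) below. The shares of all tested genes were 23.4% above and 23.3% below, and the list's median was 0.07 log2. Ccr9, a receptor gene for homing to the gut, had 174 and 174 CPM at CT18, against 213 and 204 CPM at CT14 (-0.27 ± 0.07 log2). Cish, a feedback inhibitor of cytokine signalling, had 10.2 and 9.40 CPM at CT18, against 13.7 and 13.2 CPM at CT14 (-0.46 ± 0.16 log2). Of 16 genes for NF-kB and its feedback inhibitors, 9 (56.25%) had both CT18 libraries below and 0 above, beside the same shares of all tested genes. Nfkbia had 177 and 187 CPM at CT18, against 206 and 209 CPM at CT14 (-0.19 ± 0.07 log2). No gene of the identity, homing, cytokine receptor and NF-kB lists passed in either direction.

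Among metabolic genes, Cpt1a, which controls entry of fatty acids into mitochondria, had 59.0 and 62.2 CPM at CT18, against 77.7 and 73.5 CPM at CT14 (-0.32 ± 0.09 log2, not passing). The 8 other libraries ran from 53.3 over 90.3 to 111 CPM, so both CT18 libraries were lower than 6 of them, and CT18 stood at -0.41 ± 0.07 log2 from their mean. Lbp, not itself a metabolic gene, encodes a lipopolysaccharide-binding protein and had 3.64 and 4.50 CPM at CT18, against 8.12 and 9.21 CPM at CT14. Its log2 difference, -1.09 ± 0.15, was close to that of Hsph1 in size and just missed the threshold (adjusted p = 0.0512, edgeR with Benjamini-Hochberg adjustment).

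The libraries also differed in markers of other cells. The summed level of 15 monocyte and macrophage markers was 1319 and 1435 CPM at CT18, against 935 and 1163 CPM at CT14, a ratio of means of 1.31, and the 8 other libraries spanned 620 to 1934 CPM. For 13 of the 15 (86.7%) both CT18 libraries were above, beside 23.4% of all tested genes, and for 0 both were below. The median was 0.52 log2. None passed in the fit of 12 libraries, while 11 of 15 passed as higher in the fit of only 4, beside 1.57% of all genes tested there. Lyz2, the lysozyme gene of myeloid cells, had 463 and 494 CPM at CT18, against 281 and 386 CPM at CT14. Dendritic cell markers summed to 597 and 600.5 CPM at CT18, against 724 and 648 CPM at CT14, and Ccl17, their chemokine gene, had 1.86 and 2.05 CPM at CT18, against 4.29 and 3.36 CPM at CT14. The sum of CD8 T cell markers was 4171 and 4144 CPM at CT18, against 4100 and 4237 CPM at CT14. B cell markers summed to 2020 and 1838 CPM at CT18, against 1999 and 2030 CPM at CT14, so RNA of B cells was present at both times. Neutrophil markers summed to 40.6 and 51.3 CPM at CT18, against 37.2 and 28.2 CPM at CT14. No tested marker of monocytes was at 0, and their part in the differences above was not tested. In bulk samples, fewer cells of a type and less RNA per cell cannot be told apart.

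**Figure D4:**
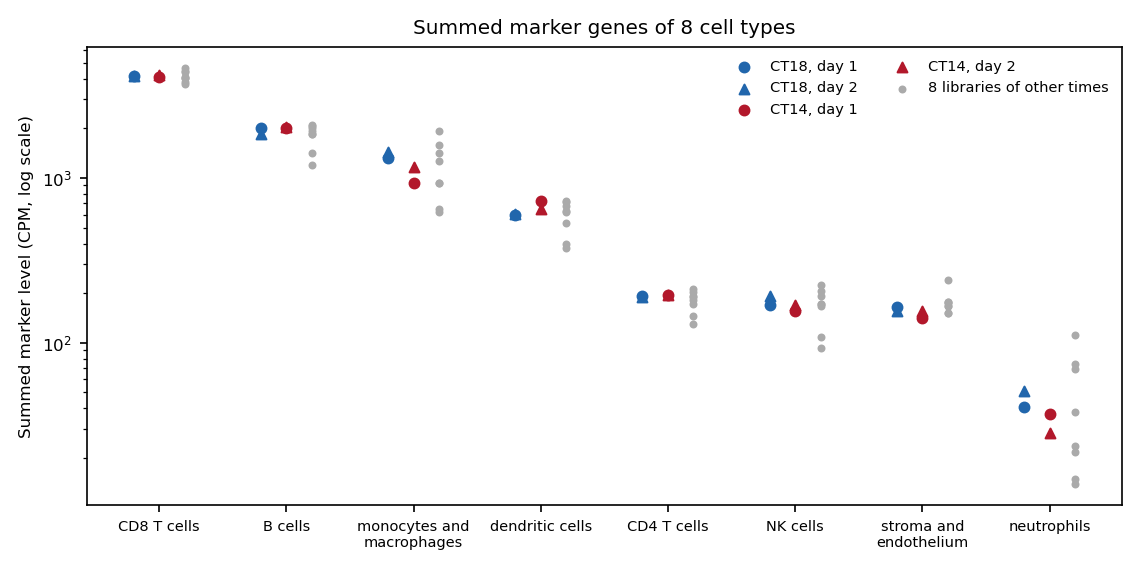
Summed level in CPM, on a log scale, of the marker genes of 8 cell types in the CT18 libraries (blue, left), the CT14 libraries (red) and the 8 libraries of other times (grey, right), with circles for day 1 and triangles for day 2. CD8 T cell markers lie together near 4100 CPM in both groups, and monocyte and macrophage markers are higher at CT18 (1319 and 1435 CPM) than at CT14 (935 and 1163 CPM).

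Depth differed as well. The gene counts were 26174929 and 27073131 at CT18, against 32205484 and 33497078 at CT14, out of a range of 24689964 to 33497078 over the 12 libraries. With all libraries thinned to the same depth, the same 6 genes passed as lower and 0 as higher. Between the 2 days, chi-square divided by its degrees of freedom over genes was 2.87 for the CT18 libraries and 5.32 for the CT14 libraries.

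The step could be taken once on each day. Over the 10131 genes with at least 5 CPM, the day 1 and day 2 differences had a Pearson r of 0.48 and a Spearman rho of 0.38 across genes, which are not independent of each other and within a day share their libraries. On both days 3549 genes were lower at CT18 and 2914 higher, and 3668 had opposite signs. Hspa1b, Hsph1 and Stip1 were lower on both days.

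**Figure D5:**
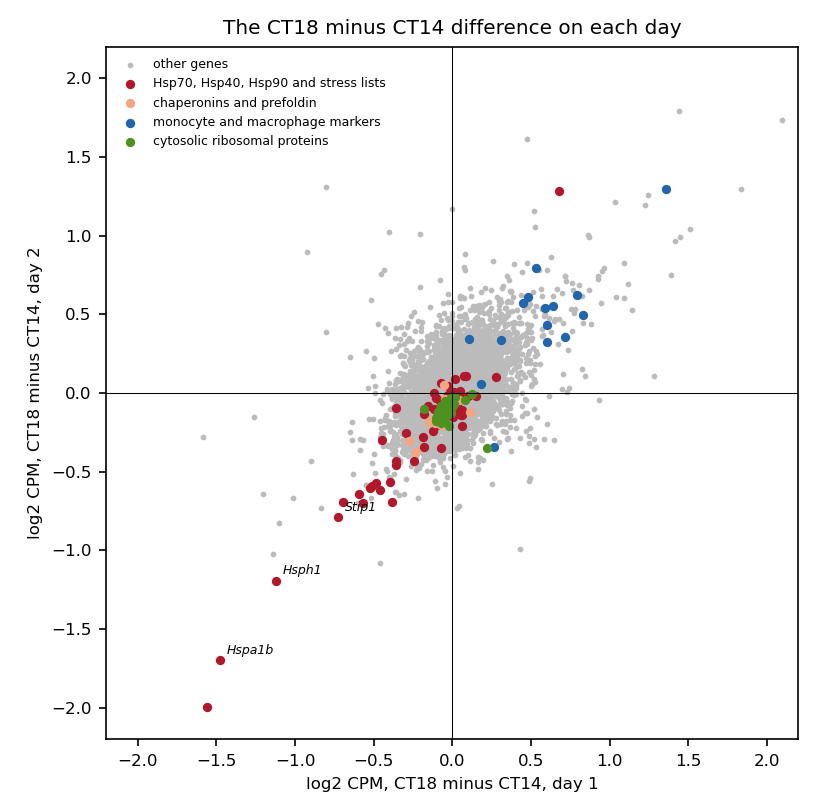
Log2 CPM difference, CT18 minus CT14, on day 1 (horizontal) and day 2 (vertical) for 10125 genes with at least 5 CPM; 6 more lie outside the axes. Members of the Hsp70, Hsp40, Hsp90 and stress lists (red) reach down to the lower left, with Hsph1 at -1.12 and -1.19, and the monocyte and macrophage markers (blue) lie mostly at the upper right.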

How the data were processed

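The members and the gene lists were chosen with earlier results of these data known. Per the submitters' processing notes, bcl2fastq 2.19, Trimmomatic 0.35, STAR 2.5.1b and RSEM 1.2.28 were used on GRCm38; the annotation is not given in the sources used here. For each library the authors deposited raw counts per gene in STAR's layout, and RSEM tables with expected counts and TPM; the deposited TPM are scaled to gene length and library size. Column 4 of the counts was used, in which 13.7% to 16.3% of uniquely mapped reads fell on no gene, against 93.6% to 95.0% in the other stranded column. Rows that name no gene (29.3% to 31.2% of reads) were left out.

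Counts were fitted with edgeR 4.0.16 in R 4.3.3, with 1 coefficient per circadian time over all 12 libraries, TMM scaling and filterByExpr (16396 of 50600 genes kept). Quasi-likelihood F tests were two-sided, with Benjamini-Hochberg adjustment over all tested genes. Standard errors are approximate, the size of the log2 difference divided by the square root of F. CPM are scaled with the TMM factors, and steps per day use log2 CPM with a prior count of 2. Gene counts per library ranged from 24689964 to 33497078. The fit was tested on simulated counts with the spread estimated from these data. Of 100 genes changed by 0.4 log2 at CT18, 27 passed, and of 100 changed by 0.8 log2, 90 passed. Among unchanged genes 4 passed. A gene that did not pass can therefore still differ by an amount near 0.4 log2. Symbols were matched for 50376 identifiers in GENCODE M21, which also gives coordinates. Alternatives were RLE scaling, no filter, DESeq2 1.42.0, rounded expected counts, a robust spread, other sets of libraries and the day as a block.

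Replicate numbers are collection days in the labels, so they pair libraries. Over 10153 genes, the deviations of the CT14 and CT18 pair correlated at 0.05, and those of 15 pairs of times from -0.60 to 0.35.

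Named genes were the largest falls among passing genes with at least 5 CPM, the 5 of smallest p where fewer passed in a direction, the 2 of smallest p in each of 43 lists, and a list of chaperone, clock, cold-inducible and T cell genes. Of 106 such genes some are not printed, and other genes named in the text were chosen after their values were seen.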

Additional observations from a re-analysis of the deposited data

How the results depend on the processing

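With the day as a replicate block, 3 genes were lower at CT18 (Hsph1, Ahsa2 and Stip1) in place of 6, and 0 were higher; the cause was not tested. With that pairing the comparison with the other 8 libraries kept its count of 0. Other counts of genes lower and higher at CT18 than at CT14 were 76 and 158 without the filter on low counts, 22 and 8 with DESeq2 (13853 genes with an adjusted p), 139 and 246 with only the 4 libraries, and 20 and 5 without both CT2 libraries. With the block and without both CT2 libraries, an alternative chosen after seeing the data, they were 18 and 9. Leaving out 1 library at a time gave 0 to 20 genes lower and 0 to 5 higher, with 20 lower without either CT2 library, 3 without either CT22 library, 1 without CT18 of day 2 and 0 without CT18 of day 1. RLE scaling gave 7 genes lower, rounded expected counts 4, a robust spread 8 and thinned counts, also chosen after seeing the data, 6. Of 22 alternatives, Hsph1 passed in 21, Ahsa2 and Stip1 in 20, Lman2l in 14, Chordc1 in 11 and Gprasp1 in 10, with the same sign in all. For CT18 against the 8 other libraries, where the count was 0, it was 136 without the filter, 3 with DESeq2, 3 without both CT2 libraries, 1 with expected counts, 4 with the block and without both CT2 libraries, and 0 to 1 with 1 library left out. The medians of the Hsp70, Hsp40, Hsp90, chaperonin, ribosomal, mitochondrial and monocyte lists kept their sign in all 23 settings, the Hsp90 median between -0.26 and -0.08, while that of heat shock factors and stress genes ran from -0.12 to 0.02. Of the genes named by the rule, 8 changed sign in some setting, with differences between -0.09 and 0.23 log2 as reported. Without the filter, Rbm3 was at -0.0093 and Cd8a at -0.0060, and with thinned counts Nr1d1 was at 0.043. With 1 library left out, the differences ran from -0.065 to 0.072 for Rbm3, from -0.19 to 0.0067 for Arntl, from -0.0026 to 0.11 for Cd3e, from -0.13 to 0.53 for Cr2, from -0.035 to 0.090 for Per1, from -0.020 to 0.0024 for Nr1d1, from -0.12 to 0.24 for Tsc22d3 and from -0.016 to 0.024 for Cd8a.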

Other observations

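Other groups of genes had small differences, none of which passed in either direction. Over all tested genes, 23.3% had both CT18 libraries below both CT14 libraries and 23.4% had both above. Of 19 glycolysis and glucose transport genes, 10 (52.6%) were below in this sense and 3 (15.8%) above, with a median of -0.04 log2. Pdk1, a kinase that limits entry of pyruvate into mitochondria, had 327 and 321 CPM at CT18, against 291 and 277 CPM at CT14 (0.19 ± 0.08 log2). Of 26 cell cycle and DNA replication genes, 13 (50%) were below and 2 (7.69%) above, with a median of -0.08 log2. Ccnd2, the cyclin D2 gene, had 740 and 674 CPM at CT18, against 818 and 878 CPM at CT14 (-0.26 ± 0.08 log2).

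Of 28 T cell receptor and signalling genes, 12 (42.9%) were below and 5 (17.9%) above, with a median of -0.04 log2. Nfatc2, a calcium-regulated transcription factor gene, had 104 and 105 CPM at CT18, against 113 and 117 CPM at CT14. Cd28, the costimulatory receptor gene, had 123 and 123 CPM at CT18, against 106 and 116 CPM at CT14. Immediate early genes split by day: the list's median difference was -0.22 log2 on day 1 and 0.14 log2 on day 2. Fosb had 26.6 CPM on day 1 and 60.3 CPM on day 2 at CT18, against 46.5 CPM on day 1 and 24.2 CPM on day 2 at CT14, so that its groups overlapped. Dusp1, a phosphatase gene of the same list, had 55.4 and 96.9 CPM at CT18, against 76.1 and 57.4 CPM at CT14. The interferon response list had medians of 0.16 log2 on day 1 and -0.17 log2 on day 2.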
